A study of Schizosaccharomyces pombe with 4 samples.

Results

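In fission yeast, Schizosaccharomyces pombe, 307 annotated non-coding RNAs overlapped a gene of another kind on the same strand. They were taken from 1541 non-coding RNA genes (identifiers starting SPNCRNA) among the 7049 genes of the count table, by the rule that the span of the non-coding RNA shares at least 1 base, on the same chromosome and strand, with a gene whose identifier does not start so; SPNCRNA.103 was left out by that rule. RNA was sequenced from 2 delta4dus libraries, made from a strain in which all 4 genes for dihydrouridine synthases (dus1, dus2, dus3 and dus4) are deleted, and 2 wild-type libraries. Cultures of both strains, in YES (a rich medium) at 32 °C, were taken at an optical density near 0.5 at 595 nm, total RNA was depleted of ribosomal RNA, and the libraries kept the strand of each RNA. The labels give no other allele or agent, and they do not say whether the 2 libraries of a strain came from separate cultures, so p-values measure the spread between these libraries, which may be technical.

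Dihydrouridine synthases reduce uridine to dihydrouridine, mainly in the loops of transfer RNAs. Long non-coding RNAs of fission yeast start upstream of genes, run past their ends or lie inside them, and many are removed by the nuclear exosome. Small nucleolar RNAs (snoRNAs), which guide the chemical modification and cutting of ribosomal RNA, are often cut out of longer non-coding host transcripts or out of introns. Where a non-coding RNA and a gene share a strand, a read from the shared bases fits both annotations. In RNA from whole cultures, fewer cells with an RNA and less of it per cell cannot be told apart.

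Library totals were 435405178 and 495098038 counts in delta4dus and 289767027 and 264948323 in wild-type, of which ribosomal RNA genes held 84.7% to 90.7%. The deleted genes were counted first as a check of the labels. dus1 had 177 and 167 reads in delta4dus, against 2192 and 1940 in wild-type, and dus2 had 380 and 276 against 2326 and 1833. dus3 had 1709 and 1225 reads in delta4dus, against 3859 and 3214 in wild-type, and dus4 had 410 and 140 against 528 and 467. All 4 genes were lower in each delta4dus library than in either wild-type library, and none of them was at 0.

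The small RNA genes printed here share all or part of their bases with a non-coding RNA whose counts are given further on, and they are shown as the shared stretches to which the counts refer. SPNCRNA.659 (named snoZ, chrI:526641-528541, plus strand, ASM294v2 coordinates of the count table) holds 5 snoRNA genes, SPNCRNA.727 holds snoZ16, and SPNCRNA.1502 shares only the last 16 bases of a tRNA-Pro gene. Their sequences are from the RefSeq genome ASM294v3, read 5′ to 3′ at its own coordinates, which for these 7 genes equal those of the count table. In the snoRNAs, capitals mark the letters GATGA in the first 25 bases and CTGA in the last 25 bases, core letters of the C and D boxes of box C/D snoRNAs, searched on the strand of the RNA and not on the other strand. In the tRNA gene, capitals mark the 16 bases that SPNCRNA.1502 shares.
snoZ8 (chrI:526726-526803, plus strand): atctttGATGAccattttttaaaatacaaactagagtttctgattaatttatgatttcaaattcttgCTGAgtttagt
snoZ7 (chrI:526937-527036, plus strand): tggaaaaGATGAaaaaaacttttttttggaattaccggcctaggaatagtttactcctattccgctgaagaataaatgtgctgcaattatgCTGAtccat
snoZ5 (chrI:527191-527275, plus strand): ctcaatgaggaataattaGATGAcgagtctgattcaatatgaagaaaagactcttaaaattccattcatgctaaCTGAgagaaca
snoZ4 (chrI:527387-527474, plus strand): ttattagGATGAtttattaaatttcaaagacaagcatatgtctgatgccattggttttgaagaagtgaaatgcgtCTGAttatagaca
snoZ3 (chrI:527624-527713, plus strand): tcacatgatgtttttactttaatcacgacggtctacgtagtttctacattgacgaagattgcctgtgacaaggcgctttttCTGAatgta
snoZ16 (chrI:1234963-1235045, plus strand): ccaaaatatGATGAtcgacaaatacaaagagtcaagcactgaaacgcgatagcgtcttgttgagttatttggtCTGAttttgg
SPBTRNAPRO.06 (chrII:2319292-2319363, plus strand): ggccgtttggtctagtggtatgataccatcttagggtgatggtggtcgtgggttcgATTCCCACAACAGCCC

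CTGA was found in all 6 snoRNAs printed and GATGA in all but snoZ3. Over the 66 snoRNA genes of ASM294v3, which include other classes of snoRNA, 24 held GATGA in the first 25 bases and 33 held CTGA in the last 25 bases.

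The 307 non-coding RNAs made 325 pairs with 310 genes, and 14 of them overlapped more than 1 gene. The gene with the longest overlap was protein-coding for 290 of them, a snoRNA for 13, a tRNA for 1 and of another kind for 3. By arrangement, 178 lay over the 5′ end of the gene, 71 over its 3′ end, 43 inside it and 15 held the whole gene. They lay on all 3 chromosomes (136 on I, 110 on II and 61 on III), 181 on the plus and 126 on the minus strand. Their exons summed to a median of 1073 bases (range 75 to 4620), and the median overlap was 66 bases, or 5.68% of the span of the non-coding RNA.

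Overlaps at gene ends piled up just below 1 length. Of the 249 non-coding RNAs over a gene end, 111 shared 60 to 67 bases with the gene and 44 shared exactly 67. By contrast 1 shared 68 bases, and 5 shared 68 to 75. None of the 111 had an identifier number under 600. In the newer RefSeq annotation, ASM294v3, 276 of the non-coding RNAs stood at the same start and end, while many coding transcripts had been redrawn. Among the 277 whose own entry and main gene could both be found there, the main gene still overlapped for 188 and no longer overlapped for 89. Over 3′ ends 62 of 63 overlaps remained, over 5′ ends 96 of 168, and inside genes 19 of 34. For several of the pairs described here, the place in ASM294v3 is given with their values.

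**Figure D1:**
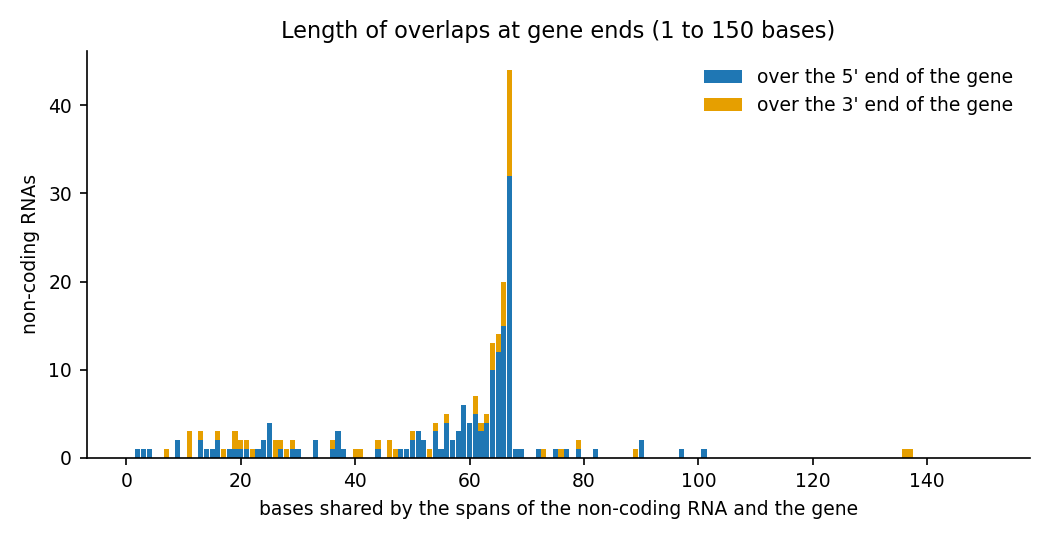
Number of non-coding RNAs (y axis) by bases shared with the gene whose end they overlap (x axis, 1 to 150 bases), for overlaps of the 5′ end (blue) and the 3′ end (orange) of the gene. The counts climb to 44 non-coding RNAs at 67 bases and drop to 1 at 68 bases.

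Where 1 feature lay within the other, the counts were nested. In all 39 pairs where the exons of the non-coding RNA lay wholly within exons of the gene, its count was at most that of the gene in each of the 4 libraries, and in all 21 pairs where gene exons lay wholly within those of the non-coding RNA, the count of the gene was at most that of the non-coding RNA. SPNCRNA.53 (prl53, a poly(A)-bearing RNA) shares 1831 bases with SPAC27E2.11c, a gene for a protein found only in Schizosaccharomyces. It had 213850 and 153944 reads in delta4dus and 170257 and 132785 in wild-type, and SPAC27E2.11c had 213859 and 153951 reads in delta4dus and 170266 and 132785 in wild-type. The counts of SPNCRNA.53 and SPAC27E2.11c therefore differ by at most 9 reads, and nothing in them separates the non-coding RNA from the gene. SPNCRNA.03 (prl3) stood in the same relation to SPAC806.11, an uncharacterized protein gene, with 8722 and 5311 reads in delta4dus and 8122 and 5570 in wild-type for the RNA, and 8742 and 5320 in delta4dus and 8139 and 5584 in wild-type for the gene. Read counts, here and below, are not scaled for library size, so alone they do not show a difference between strains.

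Levels relative to the overlapped gene followed the arrangement. Per kilobase of exon, the median non-coding RNA stood at 0.106 times the level of its gene where it lay over the 5′ end, 0.102 times over the 3′ end, 0.726 times inside the gene and 0.404 times where it held the gene. In all, 275 were below their gene per kilobase and 30 above it, of which 9 lay over a 5′ end, 8 over a 3′ end and 12 inside the gene. A calculation set the edge overlaps against the level of the gene: if the reads of a gene were spread evenly along its exons, the shared bases alone would hold a median of 45.4% of the count of the non-coding RNA over 5′ ends and 46.8% over 3′ ends. That share was 50% or more for 86 of the 178 non-coding RNAs over 5′ ends and 34 of the 71 over 3′ ends. Inside genes the same calculation gave a median of 131%, above the whole count of the non-coding RNA, with 38 of 43 at 50% or more. For those that held a gene, the median was 52%, with 9 of 15 at 50% or more. Even spread is an assumption, and some overlaps held next to no reads. SPNCRNA.169 shares 82 bases of the 5′ end of cdc48, which encodes an AAA ATPase that acts in ubiquitin-dependent protein degradation, and had 9 and 4 reads in delta4dus and 3 and 3 in wild-type. cdc48 had 75994 and 55114 reads in delta4dus and 54321 and 47605 in wild-type. SPNCRNA.342 lies wholly inside the exons of tsp0, a gene for a TspO-like protein, over 78 bases, and had 1 read in 1 delta4dus library and 0 in the other libraries, while tsp0 had 1025 and 535 reads in delta4dus and 1169 and 734 in wild-type. SPNCRNA.169 and SPNCRNA.342 were picked as examples after their values were seen.

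**Figure D2:**
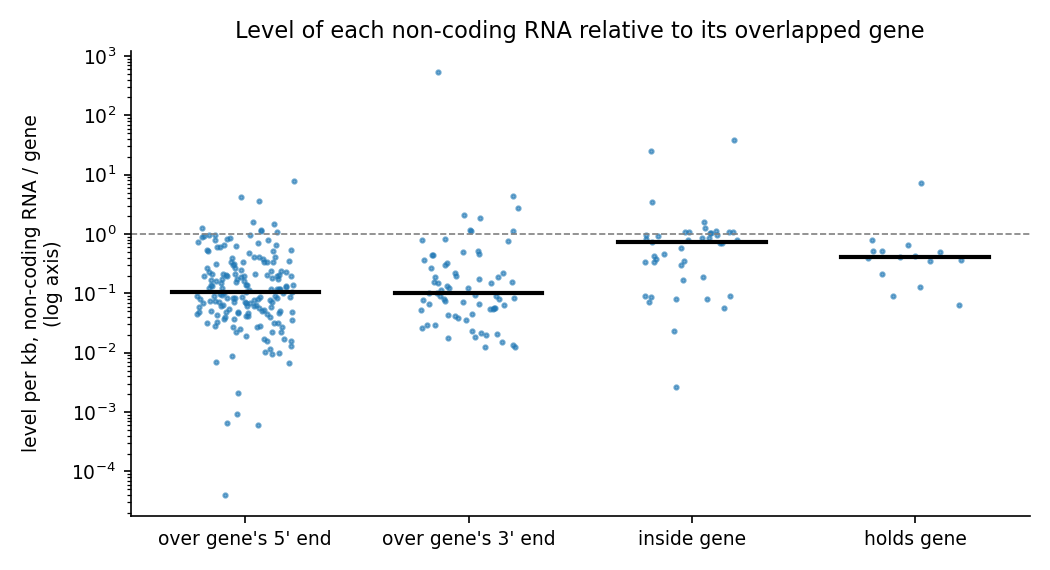
Level per kilobase of exon of each non-coding RNA divided by that of its overlapped gene (y axis, log scale, mean over the 4 libraries), by arrangement (x axis); points are non-coding RNAs with reads, black lines are medians and the dashed line marks equal levels. Medians are near 0.1 over both gene ends and 0.726 inside genes, and 30 points lie above 1, the highest of them SPNCRNA.254.

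Over small RNA genes, the counts of the small RNAs ranged from a minor part to nearly all of the count of the non-coding RNA. Of the 20 pairs with a snoRNA or tRNA gene, made by 14 non-coding RNAs, 7 had the small RNA at 95% or more of that count in all libraries. At the other end, snR41 had 0.0688% to 0.462% of the count of SPNCRNA.723, which also holds snR70 and snR51b. In between, snR97 had 14.9% to 17.5% of the count of SPNCRNA.617, and snR90 had 63.0% to 71.1% of that of SPNCRNA.1038. SPNCRNA.906 overlaps snR30 (U17), a box H/ACA snoRNA needed to cut the precursor of ribosomal RNA, and had 301109 and 251868 reads in delta4dus and 237040 and 223802 in wild-type. snR30 had 300920 and 251655 reads in delta4dus and 236941 and 223686 in wild-type, which left SPNCRNA.906 with 189 and 213 more reads in delta4dus and 99 and 116 more in wild-type. The snoRNAs snR95, snR91, snR98 and snR3 likewise had 99.2% to 99.9% of the counts of SPNCRNA.1436, SPNCRNA.901, SPNCRNA.814 and SPNCRNA.1394. Scaled for library size, SPNCRNA.906 stood at a log2 fold change (delta4dus over wild-type) of −0.017 (adjusted p = 0.991 by edgeR).

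In SPNCRNA.659, whose snoRNA sequences are printed above, the 5 snoRNAs made up 87.1% and 93.7% of the count in delta4dus and 84.4% and 91.5% in wild-type. The 5 did not share this evenly. snoZ7 alone held 54.4% and 63.4% of the count in delta4dus and 49.0% and 60.8% in wild-type, whereas snoZ8, the first in the cluster, held 1.12% and 0.467% in delta4dus and 1.26% and 0.659% in wild-type. A read that reaches 2 of the genes could enter the sum more than once, so these sums are upper limits. After the counts of the snoRNAs were subtracted, SPNCRNA.659 kept 1938 and 1001 reads in delta4dus and 1615 and 1062 in wild-type, a log2 fold change of −0.18 ± 0.20 (SE), which did not pass edgeR's test (adjusted p = 0.887).

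At SPNCRNA.1502 the shared stretch was short. It shares 16 of its 399 bases with SPBTRNAPRO.06, the tRNA-Pro gene printed above, and had 1829 and 2469 reads in delta4dus and 1318 and 1270 in wild-type. SPBTRNAPRO.06 had 1887 and 2537 reads in delta4dus and 1357 and 1328 in wild-type, or 103% to 105% of the count of the non-coding RNA. The log2 fold change of SPNCRNA.1502 was 0.51 (adjusted p = 0.839 by edgeR). In ASM294v3, SPNCRNA.1502 starts after the end of the tRNA gene and shares no base with it.

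Other counts stood close to that of another non-coding gene. On their own strand, 33 of the 307 overlapped another SPNCRNA gene. SPNCRNA.727 had 147789 and 102564 reads in delta4dus and 120468 and 95744 in wild-type, of which snoZ16 made up 1.30% to 2.07%. SPNCRNA.82, which ASM294v3 names mrp1, the RNA subunit of the RNase MRP enzyme that cuts ribosomal RNA precursors, shares 374 bases with it and made up 97.7% and 97.7% in delta4dus and 98.4% and 98.0% in wild-type. SPNCRNA.1189, which overlaps the 3′ end of cox5, a subunit of cytochrome c oxidase, by 66 bases, had 42338 and 34881 reads in delta4dus and 27394 and 26236 in wild-type, and the non-coding gene SPNCRNA.491, which shares 397 of its 424 bases with it, had 99.2% to 99.4% of that count. SPNCRNA.254 stood 540 times above SPAC4F10.17, an uncharacterized protein gene, per kilobase, and SPNCRNA.1032, annotated as possibly a small non-coding RNA, had only 7 to 12 reads fewer than its 24739 to 44507. The high counts of SPNCRNA.727, SPNCRNA.1189 and SPNCRNA.254 were thus nearly equal to those of mrp1, SPNCRNA.491 and SPNCRNA.1032. In the same order, the log2 fold changes of the overlapping RNAs were −0.083, 0.24 and 0.068 (adjusted p = 0.922, 0.695 and 0.989 by edgeR).

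**Figure D3:**
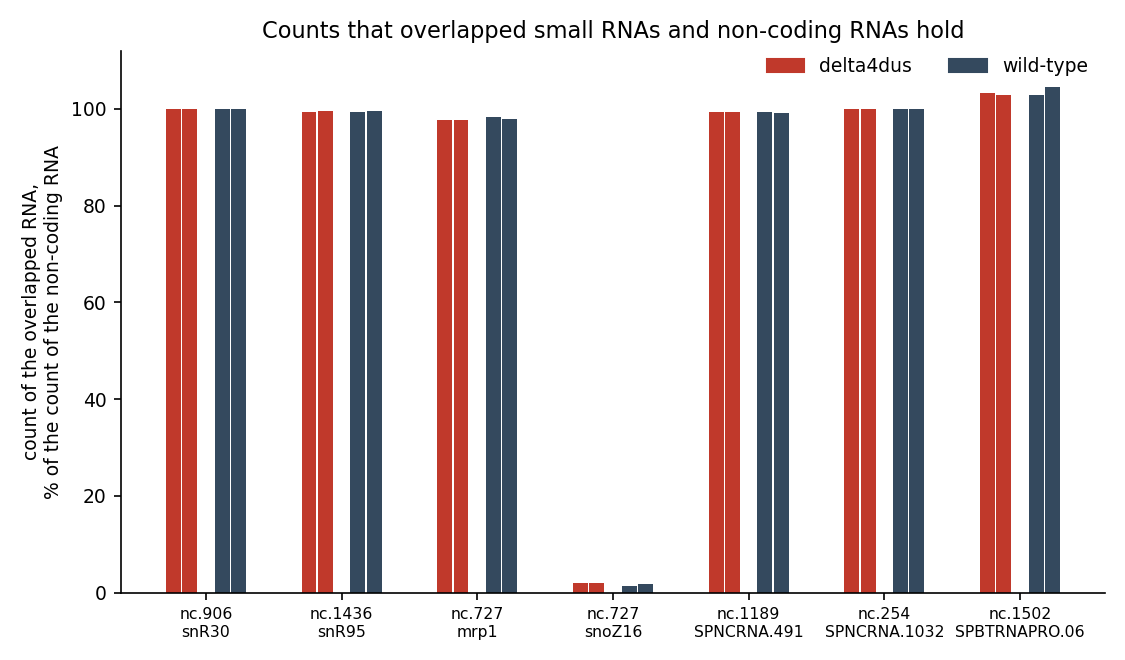
Count of an overlapped RNA as a percentage of the count of the non-coding RNA that overlaps it (y axis), 1 bar per library, delta4dus in red and wild-type in blue-grey; on the x axis nc. stands for SPNCRNA., with the overlapped RNA below. Bars stand at 97.7% or more for all pairs but SPNCRNA.727 and snoZ16, where they reach 2.07%.

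For 3 non-coding RNAs, the overlap lay wholly in an intron, with no exon base shared. SPNCRNA.499 is snR191, a box H/ACA snoRNA of 128 bases in an intron of nog2, a GTPase of ribosome export. It had normalised counts, which are counts scaled to a common effective library size, of 20598 and 33354 in delta4dus and 18687 and 32004 in wild-type. nog2 had 9791 and 10093 in delta4dus and 9491 and 9678 in wild-type. Per kilobase snR191 lay 39.2 times above nog2. SPNCRNA.498, annotated as a snoRNA gene of 100 bases in an intron of ipa1, an mRNA processing factor, had normalised counts of 1324 and 2786 in delta4dus and 1272 and 2527 in wild-type, 25.2 times above ipa1 per kilobase. SPNCRNA.497 is snR48, 75 bases in an intron of the ribosomal protein gene rps3. It had 2448 and 3216 in delta4dus and 1897 and 2761 in wild-type, and lay below rps3 per kilobase, at 0.348 times its level. In all 3, the second library of each strain was the higher one and the strains overlapped. SPNCRNA.254 and snoZ7 were likewise higher in the second library of each strain; the part of the library in these values was not tested.

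None of the non-coding RNAs passed the test between strains. Of the 307, 291 passed the filter on low counts, and the quasi-likelihood test of edgeR, adjusted over all 6813 genes by the Benjamini-Hochberg method, called 0 of them, where it called 0.0734% of all genes. At an unadjusted p under 0.05, 12 (4.12%) were higher and 8 (2.75%) lower in delta4dus, against 3.55% and 4.02% of all genes. The normalised counts of the strains did not overlap for 106 (36.4%), 64 of them higher and 42 lower in delta4dus, against 38.7% of all genes. These shares lie near those of all genes. DESeq2 called 2, where it called 0.802% of the genes to which it gave an adjusted p, and the authors' deposited table calls the same 2, SPNCRNA.1071 and SPNCRNA.742.

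Differences were small and centred on 0. The median log2 fold change (delta4dus over wild-type) was 0.0017 over the 291 non-coding RNAs and −3.7e-06 over all genes, and 265 of the 291 (91.1%) lay within 0.5 of 0, as did 92.9% of all genes. The 1073 other non-coding RNAs tested had a median of 0.11, with 68.8% above 0, against 50.2% of those that overlap a gene. Directions here are relative to the bulk of genes, since scaling by library totals alone moves the median of all genes by −0.42.

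SPNCRNA.1071 came nearest to a call. It overlaps 64 bases of the 5′ end of hsp9, a small heat shock protein, and had normalised counts of 733 and 827 in delta4dus, against 1288 and 1344 in wild-type. Both delta4dus libraries were below both wild-type libraries. hsp9 itself had 8661 and 8625 in delta4dus, against 13077 and 14335 in wild-type, again with no overlap. The log2 fold changes were −0.76 ± 0.09 (SE, 2 libraries each) for SPNCRNA.1071 and −0.67 ± 0.06 for hsp9, with adjusted p-values by edgeR of 0.188 and 0.0786. In the authors' deposited table, SPNCRNA.1071 stands at −0.76 with an adjusted p of 4.12e-06 and hsp9 at −0.66 with 4.01e-12; DESeq2 gave SPNCRNA.1071 1.50e-06. Spread evenly over the 720 exon bases of hsp9, its reads would place 769.9 and 766.7 normalised counts in the 64 shared bases in delta4dus, against 1162 and 1274 in wild-type. That is 90.2% to 105% of the count of SPNCRNA.1071 in each library, and the part of hsp9 reads in its difference was not tested.

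SPNCRNA.742 overlaps 67 bases of the 5′ end of met26, the methionine synthase gene, and had normalised counts of 863 and 802 in delta4dus, against 1375 and 1132 in wild-type. The 2 delta4dus libraries lay below both wild-type libraries, whereas met26 overlapped between strains, with 100458 and 122291 in delta4dus and 96590 and 111985 in wild-type. The log2 fold changes were −0.59 ± 0.11 (adjusted p = 0.484 by edgeR) and 0.09 ± 0.17 (adjusted p = 0.927). DESeq2 gave SPNCRNA.742 an adjusted p of 0.0206, and the authors' deposited table gives −0.59 and 0.0217. An even spread of met26 reads would place more in the 67 shared bases than SPNCRNA.742 had in all, at 280% and 366% of its count in delta4dus and 169% and 238% in wild-type.

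SPNCRNA.1459, SPNCRNA.1259 and SPNCRNA.964 were among the other named non-coding RNAs lower in both delta4dus libraries than in either wild-type library. SPNCRNA.1459 (nam1, an RNA bound by the meiotic RNA remover Mmi1) overlaps 76 bases of the 3′ end of mlo3, an mRNA export factor, and had 1672 and 1652 normalised counts in delta4dus, against 1978 and 2048 in wild-type. mlo3 was lower too, with 8051 and 8595 in delta4dus and 9427 and 9437 in wild-type. SPNCRNA.1259, over 9 bases of the 5′ end of the peroxiredoxin gene tpx1, had 1462 and 1562 in delta4dus, against 1852 and 1846 in wild-type. tpx1 was also lower in both delta4dus libraries than in either wild-type library. Spread evenly, its reads would place 362 and 359 normalised counts in the 9 shared bases in delta4dus, against 407 and 394 in wild-type. SPNCRNA.964, over 30 bases of the 5′ end of tif51 (translation factor eIF5A), had 4847 and 5309 in delta4dus, against 6376 and 5881 in wild-type, while the values of tif51 overlapped between strains. The log2 fold changes of the 3 non-coding RNAs were −0.28, −0.29 and −0.27, with adjusted p-values by edgeR from 0.524 to 0.599. By the even-spread calculation, mlo3 reads in the shared bases would be 42.1% to 47.6% of the count of SPNCRNA.1459. For tpx1 and SPNCRNA.1259 that share was 21.3% to 24.8%, and for tif51 and SPNCRNA.964 it was 44.1% to 55.3%. The part of gene reads in these differences was not tested.

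ter1 (SPNCRNA.214) is the RNA of telomerase, the enzyme that extends chromosome ends. Its 5169 and 5134 normalised counts in delta4dus lay below the 5989 and 5611 in wild-type. SPAC16A10.03c, a gene for a Pep5/Vps11-like protein whose 5′ end it overlaps by 58 bases, overlapped between strains with 2145 and 1906 in delta4dus and 1894 and 1961 in wild-type. The log2 fold change of ter1 was −0.17 ± 0.05 (SE), and its 95% interval reached from −0.31 to −0.03. Its adjusted p by edgeR was 0.626. In ASM294v3 ter1 and SPAC16A10.03c no longer overlap.

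On the other side, SPNCRNA.623 had 886 and 805 normalised counts in delta4dus, against 674 and 649 in wild-type. It overlaps 65 bases of the 5′ end of erv46, a cargo receptor of vesicles between endoplasmic reticulum and Golgi, which was lower in both delta4dus libraries, at 2642 and 2750 against 2862 and 2836. SPNCRNA.1518 behaved alike beside dbp5, an RNA helicase of mRNA export, with 937 and 909 in delta4dus, against 754 and 790 in wild-type. dbp5 had 7504 and 7553 in delta4dus and 7814 and 7630 in wild-type. The log2 fold changes were 0.35 ± 0.09 for SPNCRNA.623 and 0.26 ± 0.08 for SPNCRNA.1518 (adjusted p = 0.599 and 0.626 by edgeR), against −0.08 for erv46 and −0.04 for dbp5. Neither SPNCRNA.623 nor SPNCRNA.1518 overlaps these genes in ASM294v3.

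SPNCRNA.1063 (beside adg1), SPNCRNA.1191 (beside emc4), SPNCRNA.1533 (beside mam1, the transporter that exports M-factor pheromone) and SPNCRNA.609 (beside hsp3104) were also higher in both delta4dus libraries than in either wild-type library. Their log2 fold changes ran from 0.14 to 0.37, and those of their overlapped genes from −0.12 to 0.07. Edge overlaps in these 4 pairs were 52 to 66 bases long. None of the 4 passed edgeR's test.

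**Figure D4:**
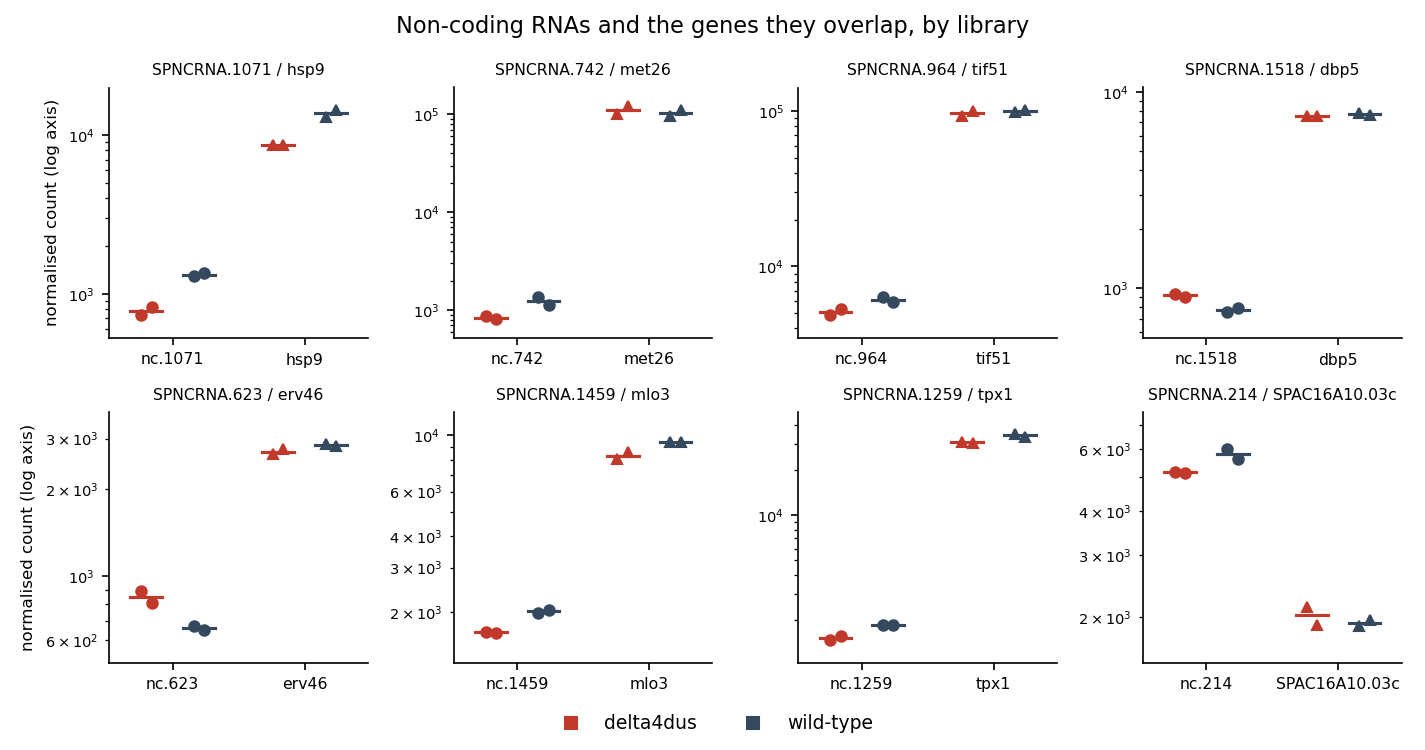
Normalised counts (y axes, log scale) of 8 non-coding RNAs (circles, nc. for SPNCRNA.) and of the genes they overlap (triangles), 1 point per library, delta4dus in red on the left and wild-type in blue-grey on the right; bars are means of 2 libraries. The circles do not overlap between strains in any of the 8 panels, and hsp9 lies lower in delta4dus together with SPNCRNA.1071, while met26 and tif51 overlap between strains.

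SPNCRNA.2001 and SPNCRNA.2002 are nearly the same transcript as SPCC13B11.02c, an uncharacterized protein gene with which they share 3794 and 3730 bases. SPNCRNA.2001 had 689 and 701 normalised counts in delta4dus, against 490 and 531 in wild-type, and SPNCRNA.2002 had 666 and 678 against 474 and 510. SPCC13B11.02c had 687.9 and 699.5 in delta4dus, against 488.8 and 528.2 in wild-type. All 3 stood at a log2 fold change of 0.45 ± 0.10 and an adjusted p of 0.524 by edgeR, and their counts do not separate the 3 names. ASM294v3 calls the exact span of SPNCRNA.2001 adh1AS, an antisense RNA of the alcohol dehydrogenase gene adh1. adh1 shares 2865 bases with it on the other strand. Its normalised counts overlapped between strains, with 311146 and 391548 in delta4dus and 280829 and 350083 in wild-type. The log2 fold change of adh1 was 0.16 ± 0.25 (adjusted p = 0.919 by edgeR). In raw reads adh1 had 406658 and 352101 in delta4dus and 274047 and 286342 in wild-type, so that the count of SPNCRNA.2001 was 0.152% to 0.221% of that of adh1. The counts of the strands were thus far apart, and the part that adh1 reads placed on the wrong strand may have in these values was not tested.

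The largest fold changes belonged to barely detected RNAs. SPNCRNA.319, over 182 bases of the 5′ end of the cation ATPase gene cta3, had 14 and 14 reads in delta4dus, against 3 and 3 in wild-type, with a log2 fold change of 1.91 ± 0.61. cta3 had 768 and 331 reads in delta4dus, against 217 and 132 in wild-type, a log2 fold change of 1.32 ± 0.29. Neither passed edgeR's test (adjusted p = 0.626 and 0.561), although the authors' deposited table calls cta3 at 1.32 with an adjusted p of 0.0103. SPNCRNA.1121 and SPNCRNA.266, the other RNAs with a log2 fold change of 1 or more in size, had 7 to 28 reads in each library.

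Among named non-coding RNAs with other roles, fbp1-ot3 (SPNCRNA.1325), an overlapping transcript upstream of the fructose-1,6-bisphosphatase gene fbp1, had 106.4 and 135.7 normalised counts in delta4dus, against 105.5 and 95.4 in wild-type. fbp1 had 246 and 234 in delta4dus, against 232 and 171 in wild-type. Both transcripts stood slightly higher in delta4dus, at log2 fold changes of 0.26 ± 0.23 and 0.25 ± 0.20 (adjusted p = 0.832 and 0.818 by edgeR). nc-tco1 (SPNCRNA.600), which holds the gene tco1 within it, overlapped between strains, with 1446 and 1648 in delta4dus and 1535 and 1758 in wild-type, and the count of tco1 left 6.14% to 7.69% of its reads to the rest of the transcript. lncRNA584 and meu20, an RNA found among meiotic transcripts, also overlapped between strains. Of the prl RNAs, named for their poly(A) tails, prl28 had 198 and 199 in delta4dus, against 283 and 241 in wild-type, a log2 fold change of −0.40. prl3 and prl53, given above as raw reads, stood at −0.27 and −0.0086 (adjusted p = 0.692 and 0.992 by edgeR). prl45, which overlaps the alanine racemase gene alr1, had 96.4 and 96.7 in delta4dus, against 63.5 and 80.7 in wild-type, a log2 fold change of 0.42. prl28 and prl45 thus lay on opposite sides, each without overlap between strains and without passing edgeR's test.

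Fold changes of non-coding RNAs and their genes had a higher Pearson r in pairs that shared at least 10% of bases. Across the 290 pairs in which both were tested, the log2 fold changes had a Pearson r of 0.466 and a Spearman rho of 0.346, as a description across genes that share libraries and, in part, reads. For 215 pairs sharing under 10% of the exon bases of the non-coding RNA, r was 0.287, for 33 pairs sharing 10% to 90% it was 0.795, and for 42 pairs sharing at least 90% it was 0.611. The median difference in log2 fold change, without its sign, was 0.12 over all pairs. It was 0.138 for pairs sharing under 10%, 0.071 for 10% to 90% and 0.117 for at least 90%. In the same order, the median count of the non-coding RNA in wild-type replicate 1 was 222, 356 and 137. The ratio of the count of the non-coding RNA to that of its gene did not overlap between strains in 97 pairs (33.4%), 53 higher and 44 lower in delta4dus, against 32.9% of all 831 same-strand overlapping pairs of tested genes. With 2 libraries against 2, an exact two-sided permutation test of a single ratio cannot go below p = 0.333.

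**Figure D5:**
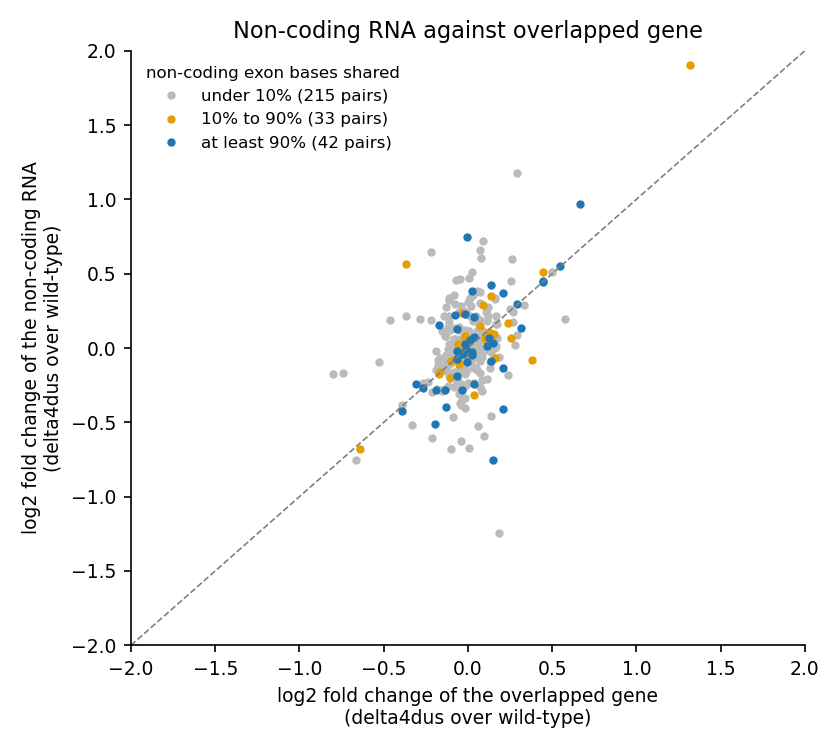
Log2 fold change (delta4dus over wild-type) of each non-coding RNA (y axis) against that of its overlapped gene (x axis) for 290 pairs, coloured by the share of the exon bases of the non-coding RNA that lie in gene exons; the dashed line marks equal values. Pairs sharing under 10% (grey, 215 pairs, r = 0.287) scatter widely around 0, and pairs sharing 10% to 90% (orange, 33 pairs, r = 0.795) lie nearer the line.

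Genes that remove or end non-coding transcripts were examined beside them. The list held 26 genes, among them rrp6 and dis3, the nucleases of the nuclear exosome, mtr4 and mtl1, its helicases, mmi1 and red1, which direct meiotic transcripts to it, and seb1 and dhp1, which end transcription. All 26 were tested and both edgeR and DESeq2 called 0 of them, with 9 above and 17 below 0 and a median log2 fold change of −0.03 (range −0.21 to 0.10), beside −3.7e-06 over all genes. The lowest was mmi1, at −0.21 ± 0.07 (unadjusted p = 0.0211, adjusted p = 0.626), the only 1 of the 26 with an unadjusted p under 0.05.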

How the data were processed

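RNA-seq counts of 2 delta4dus and 2 wild-type libraries were used. Per the submitters' processing notes, Trimmomatic 0.36, TopHat2, featureCounts and DESeq2 were used with genome build ASM294v2. The deposited values are raw counts per gene. For strand, overlapping features and reads with several matches, the counting options were not given in the sources used. The authors' deposited table also holds a mean normalised signal, log2 fold changes, a Wald score, p-values and adjusted p-values.

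Spans and exons were read from the count table. Genes were kept with edgeR's filterByExpr (minimum count 10, minimum total 15), scaled by TMM factors and tested with edgeR 4.0.16 (quasi-likelihood, R 4.3.3) on genotype alone, with Benjamini-Hochberg adjustment over all 6813 genes tested; a call is an adjusted p under 0.05. Ratios used a pseudocount of 0.5. DESeq2 1.42.0, other scalings and filters, a replicate block and each library left out were alternatives. Normalised counts are scaled to the mean effective library size. Intervals cover 95%. The procedure was tested on simulated data. Annotation and sequences are from RefSeq ASM294v3, where 6844 of 7049 identifiers matched.

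Members and lists were chosen with earlier results of these data known. Named were the up to 5 RNAs per direction with the smallest p and the up to 5 differing most from their gene (mean of at least 1 CPM, strains not overlapping), the up to 3 highest per class of gene, the up to 5 highest per kilobase relative to their gene (both with a mean of at least 1 CPM, which leaves out SPNCRNA.254 there), and those with a symbol of their own.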

Additional observations from a re-analysis of the deposited data

How the results depend on the processing

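No non-coding RNA of the 307 was called under other scalings, other filters on low counts, without ribosomal RNA genes or with any 1 library left out. DESeq2 called 52 genes and 2 of the non-coding RNAs. Leaving out 1 library gave 3 to 5 called genes, with 3 when wild-type replicate 2 was left out, and the lone library of a strain is then assumed to vary like the other strain. The median log2 fold change of the non-coding RNAs was −0.43 under scaling by library totals alone; that of all genes stood at −0.42. It was 0.032 for those with at least 50% of their span in the gene, and −0.0074 to 0.036 with 1 library left out.

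The same replicate numbers appear in both strains, and the deviations of same-numbered libraries from their strain means had a Pearson r of 0.635 across genes. No label ties a number to a shared culture or day, so whether same-numbered libraries share more than a number is not known. With replicate number as a block, edgeR called 825 genes (12.1%) and 34 of the 291 non-coding RNAs tested (11.7%).

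Of 448 values of 41 named non-coding RNAs under alternatives, 381 kept their direction and their side of the threshold, 19 were newly called (2 by DESeq2, 17 with the block) and 48 changed sign. With library totals alone, 19 log2 fold changes turned negative, at −0.015 for SPNCRNA.1063, −0.21 for SPNCRNA.1189, −0.30 for SPNCRNA.1191, −0.20 for SPNCRNA.1325, −0.083 for SPNCRNA.1366, −0.024 for SPNCRNA.1502, −0.16 for SPNCRNA.1518, −0.19 for SPNCRNA.1533, −0.43 for SPNCRNA.254, −0.18 for SPNCRNA.497, −0.42 for SPNCRNA.498, −0.40 for SPNCRNA.499, −0.056 for SPNCRNA.52, −0.28 for SPNCRNA.57, −0.38 for SPNCRNA.584, −0.17 for SPNCRNA.609, −0.36 for SPNCRNA.62, −0.053 for SPNCRNA.623 and −0.31 for SPNCRNA.659. With 1 library left out, log2 fold changes that changed sign ranged from −0.051 to 0.92 for SPNCRNA.1502, −0.26 to 0.015 for SPNCRNA.1597, −0.33 to 0.15 for SPNCRNA.19, −0.38 to 0.63 for SPNCRNA.254, −1.64 to 0.31 for SPNCRNA.32, −0.32 to 0.22 for SPNCRNA.35, −0.52 to 0.69 for SPNCRNA.498, −0.30 to 0.53 for SPNCRNA.499, −0.059 to 0.044 for SPNCRNA.53, −0.076 to 0.22 for SPNCRNA.584, −0.61 to 0.21 for SPNCRNA.587, −0.19 to 0.011 for SPNCRNA.600, −0.071 to 0.14 for SPNCRNA.62, −0.16 to 0.46 for SPNCRNA.659, −0.12 to 0.035 for SPNCRNA.772, −0.16 to 0.11 for SPNCRNA.906 and −0.30 to 0.013 for SPNCRNA.968. The cause was not tested. At this depth, 16 of the 307 non-coding RNAs had too few reads to be tested, and 2 of them had none in any library.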
